A study of Mus musculus with 6 samples.

Results

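The Hox genes of mouse embryonic stem cells were examined in cells lacking both glycogen synthase kinase-3 genes and in wild-type cells. The members are the 38 Hox genes of the 4 clusters that were listed for this work, 10 in Hoxa, 10 in Hoxb, 9 in Hoxc and 9 in Hoxd. They were chosen by name. Every probe set that the platform annotation gave to exactly 1 of these genes was used, which made 48 of the 45101 probe sets and 33 of the 18193 genes with a probe set of their own. Hoxa6, Hoxb8, Hoxc11, Hoxc12 and Hoxd4 had none.

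The mutant cells are Gsk-3a-/-; Gsk-3b-/-, called DKO here, and the controls are wild-type cells of the E14K line, with 3 arrays of each. Both genotypes were kept without feeder cells on gelatin, with leukaemia inhibitory factor (1000 units/ml) in a medium of 15% serum. The labels do not give the parent line of the DKO cells, how many clones were used, or whether replicates were separate cultures, so differences between lines cannot be told apart from the loss of Gsk-3, and the p-values here reflect no more than the scatter among these arrays, which may be technical. Gsk3a read intensities of 145, 135 and 66 in DKO cells against 403, 238 and 239 in wild-type cells, a log2 difference of -1.38 (limma, adjusted p = 0.0942; 0.00646 when the replicate number entered the model as a block, called the replicate block here). The brightest of 5 tested Gsk3b probe sets read 1122, 1495 and 1472 in DKO cells against 1481, 1547 and 1655 in wild-type cells (difference -0.21, adjusted p = 0.832). Where the probes lie relative to the disrupted parts of both genes was not examined, so these values do not check the labels. The 12 embryonic stem cell markers were all above the detection filter in both genotypes, and limma called 0 of them (0 at an unadjusted p of 0.05, 0 without moderation). Bacterial and phage spike-in controls averaged 9.84 (DKO) and 10.22 (wild-type) log2 units on the arrays of replicate 3 and 1.68 to 1.83 on the other 4, so replicate 3 was treated as a batch, by this signal alone, that holds both genotypes.

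Hox genes encode homeodomain transcription factors that give cells their position along the head-to-tail axis. In each cluster the genes are numbered from the 3′ end, and low numbers (anterior paralogues) are switched on earlier and further forward in the embryo than high numbers (posterior paralogues). Gsk-3 marks beta-catenin for degradation, and Wnt signals and the Cdx factors are known activators of Hox genes in the tail end of the embryo. In pluripotent cells the clusters are normally held silent by Polycomb proteins.

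Most Hox genes were dim in both genotypes. Probe sets entered the test when 3 or more of the 6 arrays reached intensity 16 (log2 of 4), the filter used here, and 10 of the 33 measured Hox genes met this (30.3%), against 57.7% of all genes. On the brightest probe set of each gene, 10, 10 and 11 Hox genes reached intensity 16 on the 3 DKO arrays and 6, 10 and 8 did so on the 3 wild-type arrays. Of the tested genes, Hoxa9 and Hoxd8 entered only through the DKO arrays and Hoxb3 only through the wild-type arrays. For these, a difference between the genotypes follows partly from the filter.

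Hoxa9 and Hoxa10, which lie side by side in the posterior part of the Hoxa cluster, rose in DKO cells. By limma 0 Hox genes fell (1, Hoxb3, at an unadjusted p of 0.05, and 0 without moderation of the variance). These 2 of 10 tested genes stand beside 1.64% of all 10496 tested genes that rose and 2.5% that fell (limma, adjusted p under 0.05). By probe set the count was also 2, of 11 tested, beside 1.31% of all tested probe sets. Under the replicate block, 7 Hox genes rose and 1 fell, beside 5.07% and 5.63% of all tested genes. With replicate 3 set apart as a batch block 5 rose, beside 2.75%. The replicate numbers are shared by both genotypes in the sample titles, and same-numbered arrays deviated together. The fit without a block, which gave the 2 genes, did not use this pairing.

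**Figure D1:**
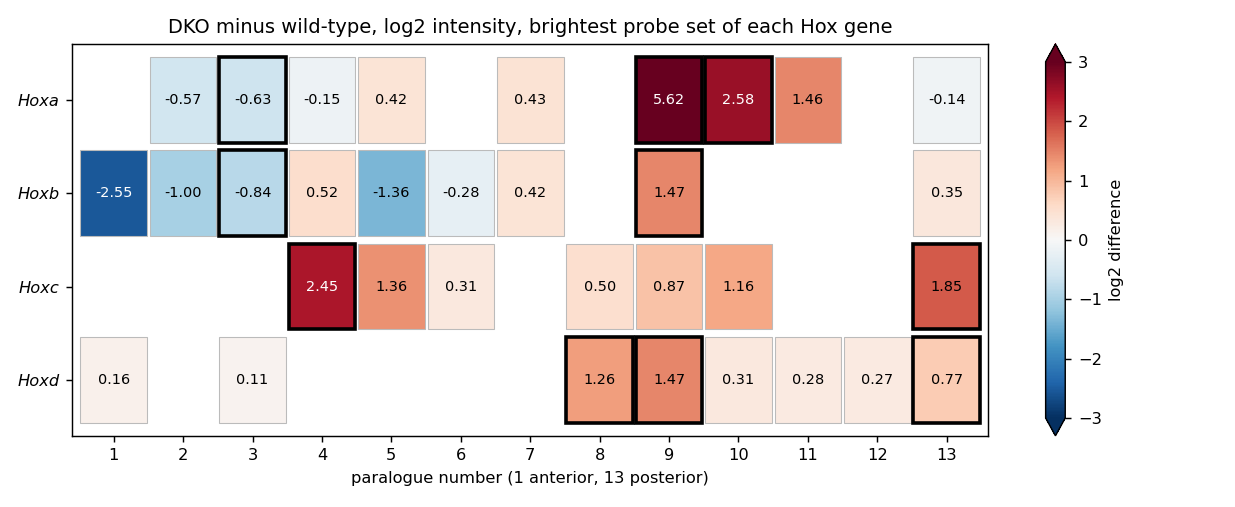
Log2 difference in intensity (DKO minus wild-type, means of 3 arrays each) for the brightest probe set of each of the 33 measured Hox genes, by cluster (rows) and paralogue number (columns). Thick outlines mark the 10 tested genes, empty places have no value here, and colours saturate at 3. The deepest red lies at Hoxa9 (5.62) and Hoxa10 (2.58), and the deepest blue at Hoxb1 (-2.55), which was below the filter.

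Hoxa9, which patterns the posterior trunk and is active in blood progenitors, was strong in DKO cells and under the filter in wild-type cells. Its brighter probe set read 372, 326 and 282 in DKO cells and 6, 6 and 8 in wild-type cells. All 3 DKO arrays were high and close together, and all 3 wild-type arrays lay below intensity 16, so the size of the rise has only a lower limit. Hoxa9 averaged 8.34 ± 0.20 log2 units in DKO cells (SD, n = 3) and was at least 20.3-fold higher than in wild-type cells, with wild-type arrays set to the filter (fitted difference 5.62, SE 0.244, adjusted p = 2.01e-05). It passed in all 6 leave-one-out fits (1 array dropped each time), at adjusted p = 2.1e-05 to 0.00132. The second Hoxa9 probe set read 12, 10 and 11 in DKO cells and 7, 6 and 6 in wild-type cells. It did not overlap either, but it stayed under the filter in both genotypes, so the 2 probe sets differ in signal and share a direction.

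Hoxa10, the next gene in the cluster, which patterns the lumbar region and the uterus, was present in both genotypes. It read 443, 766 and 720 in DKO cells and 95, 91 and 131 in wild-type cells. The lowest DKO array was above the highest wild-type array by a wide margin. Hoxa10 averaged 9.29 ± 0.43 log2 units in DKO cells and 6.70 ± 0.29 in wild-type cells (SD, n = 3), a 6-fold rise (log2 difference 2.58, SE 0.292, adjusted p = 0.00174). Its adjusted p ran from 0.00213 to 0.0139 when each array was left out, and it was 0.0983 without moderation of the variance. A second Hoxa10 probe set was dim, at 6, 4 and 5 in DKO cells and 2, 3 and 3 in wild-type cells.

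The windows around the starts of these 2 genes are shown because they are the members that passed. RefSeq (GRCm38.p6) gives 1 start for Hoxa9 and 2 for Hoxa10, all on the minus strand of chromosome 6. Each window runs from 250 bases before the start to 50 after it. The Hoxa9 window is chr6:52227321-52227620, the Hoxa10 windows are chr6:52240805-52241104 (first start) and chr6:52234890-52235189 (second start). Capitals mark matches, on either strand, to TTTATG or TTTATT, which Cdx factors recognise, or to CTTTGA, a core motif of Tcf/Lef factors.
Hoxa9: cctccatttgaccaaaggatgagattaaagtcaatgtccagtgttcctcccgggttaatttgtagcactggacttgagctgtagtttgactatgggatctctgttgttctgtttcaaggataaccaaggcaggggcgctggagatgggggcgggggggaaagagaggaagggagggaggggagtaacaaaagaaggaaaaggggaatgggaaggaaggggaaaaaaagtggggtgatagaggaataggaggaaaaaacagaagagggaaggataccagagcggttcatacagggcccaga
Hoxa10, first start: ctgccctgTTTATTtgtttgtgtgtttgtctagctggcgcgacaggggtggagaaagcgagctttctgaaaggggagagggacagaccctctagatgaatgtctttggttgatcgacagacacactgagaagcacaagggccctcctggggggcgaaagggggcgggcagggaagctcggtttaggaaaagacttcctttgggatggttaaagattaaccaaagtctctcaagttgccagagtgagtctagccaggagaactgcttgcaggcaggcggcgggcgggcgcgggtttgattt
Hoxa10, second start: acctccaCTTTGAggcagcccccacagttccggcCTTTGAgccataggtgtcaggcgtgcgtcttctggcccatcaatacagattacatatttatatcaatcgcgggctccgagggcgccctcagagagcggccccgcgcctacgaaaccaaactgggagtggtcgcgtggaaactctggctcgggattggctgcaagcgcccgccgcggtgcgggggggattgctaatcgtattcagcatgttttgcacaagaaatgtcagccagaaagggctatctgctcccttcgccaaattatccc

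The Hoxa9 window held none of the 3 motifs. The first Hoxa10 window held 1 TTTATT, 242 bases upstream of the start, and the second held 2 copies of CTTTGA, 243 and 216 bases upstream. Motifs of 6 letters are common: among all 32851 promoter windows 11.9% held TTTATG, 19.6% held TTTATT and 16% held CTTTGA. Among the 24 windows found for 22 of the listed Hox genes the shares were 20.8%, 20.8% and 16.7%. Only Hoxb1, Hoxb4 and Hoxb8 of Hoxb and only Hoxc4 of Hoxc had a window. The shares, and the CpG median below, thus describe mainly Hoxa and Hoxd. Some windows, such as those of Hoxd4 and Hoxb8, belong to genes with no probe set of their own. The windows differed in CpG content, with 4 CpG dinucleotides at Hoxa9 and 12 and 21 at the starts of Hoxa10, where the median was 14 over the Hox windows and 7 over all windows.

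Next to these genes, Hoxa11, which shapes the forearm and the uterus, read 7, 9 and 32 in DKO cells and 4, 4 and 6 in wild-type cells. Only DKO replicate 3 was above the filter, and the gene was not tested. Hoxa13, a digit and hindgut gene at the posterior end, read 3, 4 and 4 in DKO cells and 4 on each wild-type array. Hoxa2, Hoxa4, Hoxa5 and Hoxa7, toward the anterior end, had log2 differences of -0.57, -0.15, 0.42 and 0.43, all on dim probe sets with intensities of 5 to 18. A second Hoxa5 probe set read 12, 13 and 16 in DKO cells and 7, 9 and 9 in wild-type cells, without overlap (difference 0.71, not tested).

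Hoxa3, needed for the thymus and parathyroid glands, was expressed in both genotypes. It read 44, 76 and 83 in DKO cells and 60, 127 and 134 in wild-type cells. The genotypes overlapped, and the log2 difference was -0.63 (SE 0.38, adjusted p = 0.594). This probe set carries the suffix _s_at, which Affymetrix gives to sets whose probes match several transcripts, and 3 other Hoxa3 probe sets read at most 19. The 1 of these 3 that was tested differed by -0.08 (limma, adjusted p = 0.96).

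**Figure D2:**
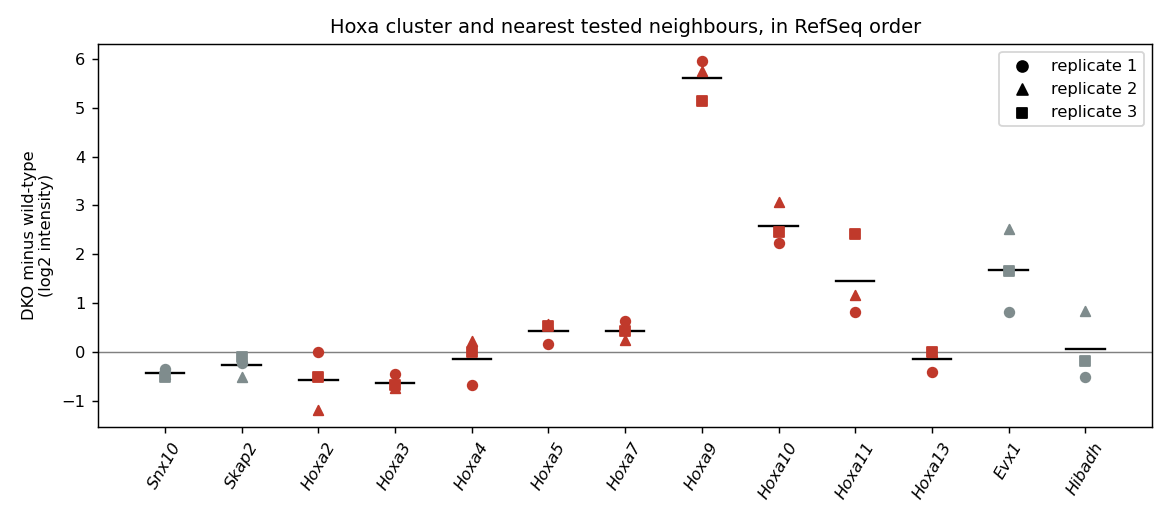
Log2 difference in intensity (DKO minus wild-type) for the measured Hoxa genes (red) and the 2 nearest tested genes on either side (grey), in the order of the RefSeq table. Symbols are same-numbered array pairs and bars are differences of means. Hoxa9, Hoxa10 and Hoxa11 stand furthest above 0, in all 3 pairs, as does Evx1 beyond the posterior end.

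The nearest tested genes outside the clusters were read for comparison. Evx1, a homeobox gene that lies beyond Hoxa13, read 124, 207 and 307 in DKO cells and 70, 36 and 97 in wild-type cells. The arrays did not overlap, but the log2 difference of 1.67 (SE 0.434) did not pass (adjusted p = 0.0891; 0.00728 with the replicate block, and 0.0449 without wild-type replicate 3, the 1 leave-one-out fit of 6 in which it passed). Skap2, beyond the anterior end, differed by -0.28 (adjusted p = 0.737). Of the 8 nearest tested neighbours of the 4 clusters, limma called 0 (2 at an unadjusted p of 0.05, 0 without moderation). With the replicate block it called 2 as higher, Evx1 and Smug1, beside 5.07% of all tested genes that rose. Smug1, a DNA repair gene beyond Hoxc4, differed by 0.83 (adjusted p = 0.334, and 0.0476 with the block). The others, Calcoco2, Cbx1, Calcoco1, Lnpk and Mtx2, had differences between -0.30 and 0.70.

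In the Hoxb cluster the anterior genes were lower and Hoxb9 was higher in DKO cells, and 0 of its 2 tested genes passed without a block (2 at an unadjusted p of 0.05, 0 without moderation). Hoxb1, which specifies a segment of the hindbrain, read 2, 3 and 3 in DKO cells and 15, 22 and 11 in wild-type cells. The genotypes were well apart, but only 1 wild-type array reached the filter and the gene was not tested. Without a filter its log2 difference of -2.55 had an adjusted p of 0.0555.

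Hoxb2, its neighbour, also a hindbrain gene, read 2, 3 and 3 in DKO cells and 4, 6 and 6 in wild-type cells. Hoxb3, another hindbrain gene, read 12 on each DKO array and 19, 26 and 20 in wild-type cells. The DKO arrays were all under the filter, so Hoxb3 was at least 1.34-fold lower (log2 difference -0.84, SE 0.232, adjusted p = 0.113; 0.0352 with the replicate block). Its second probe set read 4 on each DKO array and 5, 8 and 5 in wild-type cells, in the same direction. Hoxb5, a gene of enteric neurons and the trunk, read 4 on each DKO array and 8, 27 and 5 in wild-type cells, so wild-type replicate 2 stood apart.

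Hoxb4, Hoxb6, Hoxb7 and Hoxb13 had log2 differences of -0.28 to 0.52, with no array above intensity 22. Hoxb9, which patterns the ribs, read 28, 38 and 92 in DKO cells and 13, 17 and 21 in wild-type cells. Every DKO array was above every wild-type array, with DKO replicate 3 the highest. Hoxb9 averaged 5.53 ± 0.89 log2 units in DKO cells and 4.06 ± 0.35 in wild-type cells (SD, n = 3), a difference of 1.47 (SE 0.426, adjusted p = 0.132; 0.00562 with the replicate block and 0.0188 with the batch block).

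All 7 measured genes of the Hoxc cluster had positive differences, and 0 of its 2 tested genes passed without a block (2 at an unadjusted p of 0.05, 0 without moderation). Hoxc4, at the 3′ end of the cluster and active in the neck and thorax, read 96, 56 and 204 in DKO cells and 15, 11 and 41 in wild-type cells. The arrays of replicate 3 were the highest in both genotypes, and the groups did not overlap. The log2 levels were 6.69 ± 0.94 in DKO cells and 4.24 ± 0.99 in wild-type cells (SD, n = 3), a difference of 2.45 (SE 0.568) that missed the threshold (adjusted p = 0.0574). Within same-numbered pairs the differences were 2.68, 2.35 and 2.31, and with the replicate block the adjusted p was 0.000107. Hoxc4 also passed with the batch block (0.00136), within replicates 1 and 2 alone (0.0131), with a variance trend (0.043) and without wild-type replicate 3 (0.00988).

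Hoxc13, a gene of hair and nails at the other end of the cluster, read 59, 117 and 217 in DKO cells and 18, 32 and 55 in wild-type cells. Here too both genotypes were highest in replicate 3, and the 59 of DKO replicate 1 was close to the 55 of wild-type replicate 3. The difference was 1.85 log2 units (SE 0.523, adjusted p = 0.12), with 1.71, 1.87 and 1.98 in the same-numbered pairs and an adjusted p of 0.000458 with the replicate block and 0.0126 with the batch block.

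Between these ends the Hoxc genes were dim. Hoxc5 read 15, 6 and 9 in DKO cells and 4, 4 and 3 in wild-type cells on its brightest probe set, and its other probe sets differed by 0.02 and 0.11 log2 units. Hoxc9 read 11, 10 and 8 in DKO cells and 6, 6 and 4 in wild-type cells. Hoxc10, a gene of the lumbar spinal cord, read 8, 9 and 10 in DKO cells and 4 on each wild-type array. Hoxc6 and Hoxc8 differed by 0.31 and 0.50 with overlapping arrays. All of these were under the filter on all 6 arrays, where whole-number rounding makes the steps between values large.

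In the Hoxd cluster the signal lay in Hoxd8, Hoxd9 and Hoxd13, and limma called 0 of these 3 (2 at an unadjusted p of 0.05, 0 without moderation). Hoxd9, a gene of the lumbar region and limb, read 219, 63 and 230 in DKO cells and 62, 49 and 49 in wild-type cells. DKO replicate 2 was nearly level with the highest wild-type array. The log2 difference was 1.47 (SE 0.467, adjusted p = 0.172; 0.0211 with the replicate block). Without DKO replicate 2 the difference was 2.08 and passed (adjusted p = 0.012).

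Hoxd8, its 3′ neighbour, read 27, 18 and 62 in DKO cells and 14, 13 and 12 in wild-type cells. The wild-type arrays all lay under the filter, so Hoxd8 was at least 1.94-fold higher (log2 difference 1.26, SE 0.413, adjusted p = 0.189; 0.0407 with the replicate block). Like that of Hoxa3, this probe set has the suffix _s_at. A second Hoxd8 probe set read 14, 11 and 20 in DKO cells and 8, 5 and 5 in wild-type cells, also without overlap. Hoxd13, which shapes the digits, read 86, 95 and 180 in DKO cells and 39, 64 and 119 in wild-type cells. The genotypes overlapped and the difference of 0.77 did not pass (SE 0.438, adjusted p = 0.554; 0.0565 with the replicate block).

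Hoxd10 read 5, 6 and 19 in DKO cells and 4, 5 and 15 in wild-type cells, high in replicate 3 of both genotypes. Hoxd1, Hoxd3, Hoxd11 and Hoxd12 had no array above intensity 7, and their differences were 0.11 to 0.28.

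**Figure D3:**
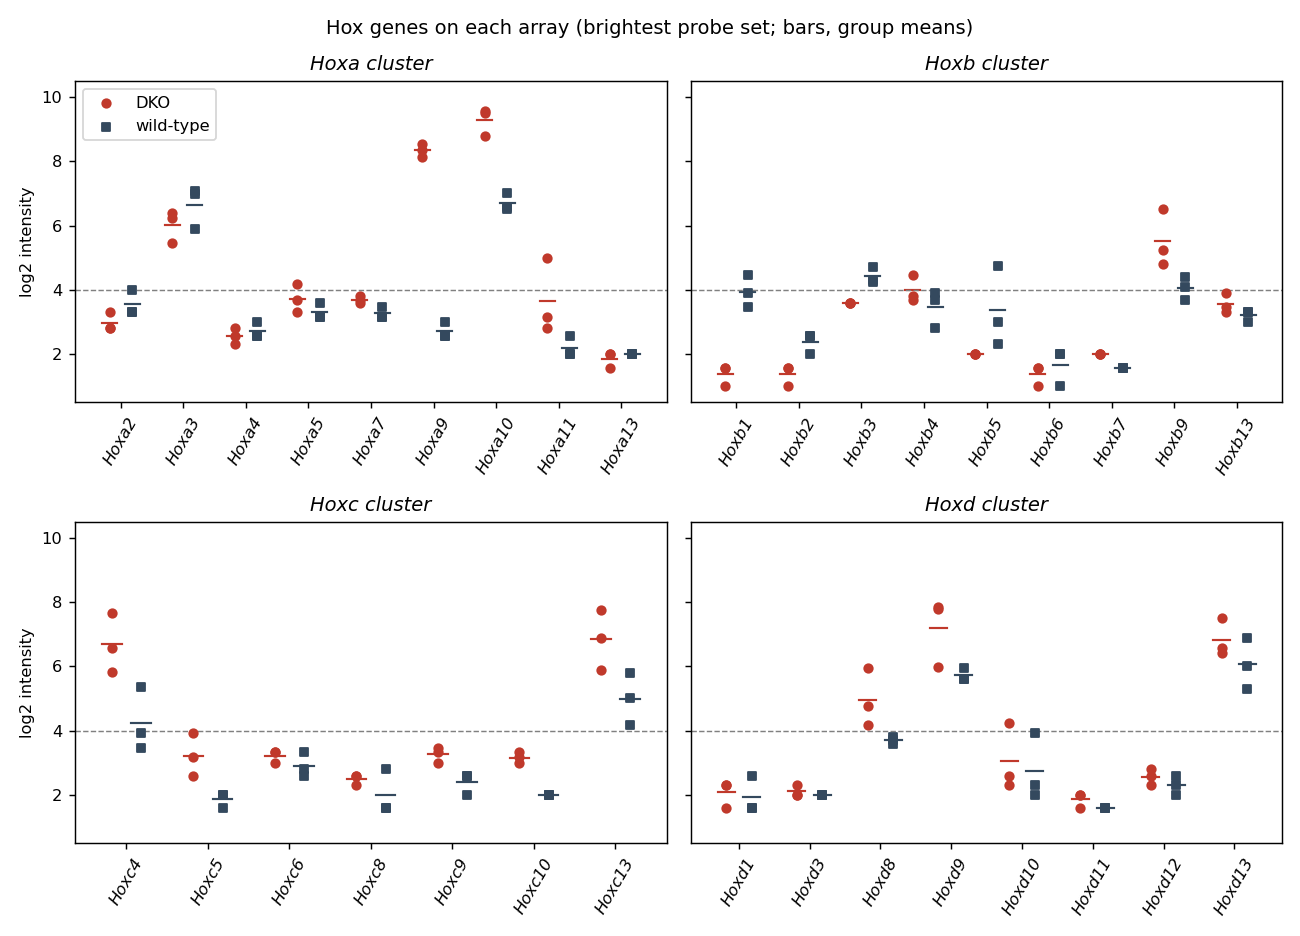
Log2 intensity of the brightest probe set of each measured Hox gene on the 3 DKO arrays (red circles) and the 3 wild-type arrays (dark squares), in panels by cluster and ordered by paralogue number, with group means as short bars. The dashed line is the filter at log2 4. Only Hoxa3, Hoxa9, Hoxa10, Hoxc4, Hoxc13, Hoxd9, Hoxd13 and Hoxb9 reached 6 on any array.

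Ordered by paralogue number instead of cluster, the sign of the differences changed along the series. Of 7 measured anterior genes (paralogues 1 to 3) all 3 DKO arrays were below all 3 wild-type arrays in 3, Hoxb1, Hoxb2 and Hoxb3, and above them in 0. Among 12 middle genes (paralogues 4 to 8) DKO arrays were above in 5 and below in 1. Among 14 posterior genes (paralogues 9 to 13) they were above in 8 and below in 0. Over all 18193 genes with a probe set, 6.49% had all DKO arrays above and 7.99% had all DKO arrays below. For the 33 Hox genes the shares were 39.4% and 12.1%. These counts lean on low values, since 5 of the 7 anterior, 10 of the 12 middle and 8 of the 14 posterior genes were too dim to be tested. Among those above, Hoxa7, Hoxa11, Hoxb7, Hoxc5, Hoxc9 and Hoxc10 were not tested. Among those below, Hoxb1, Hoxb2 and Hoxb5 were not.

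The median log2 difference was -0.63 over the anterior, 0.42 over the middle and 1.01 over the posterior genes, beside 0 over all 18193 genes. These medians describe the measured genes, and most of them rest on intensities under 16. The 3 anterior genes with DKO arrays below all wild-type arrays are in the Hoxb cluster. The Hoxd genes of the same numbers, Hoxd1 and Hoxd3, had differences of 0.16 and 0.11 with overlapping arrays, and whether the clusters differ was not tested.

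In paralogue group 9 every measured member had all DKO arrays above all wild-type arrays, as did both measured members of group 7, Hoxa7 and Hoxb7, which were under the filter. Of the 4 genes of group 9, Hoxa9 was at least 20.3-fold higher, Hoxb9 and Hoxd9 each differed by 1.47 log2 units, and Hoxc9 was under the filter on all 6 arrays. Only Hoxa9 passed without a block, and Hoxb9 and Hoxd9 passed with the replicate block. Paralogue group 13, at the far end, was mixed, with 1.85 for Hoxc13, 0.77 for Hoxd13, 0.35 for Hoxb13 and -0.14 for Hoxa13.

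Several members varied between replicate 3 and the other arrays as well as with genotype. The array of replicate 3 lay above the mean of replicates 1 and 2 by 1.48 (DKO) and 1.67 (wild-type) log2 units for Hoxc4, by 1.39 and 1.2 for Hoxc13 and by 0.99 and 1.25 for Hoxd13. For Hoxb9 these steps were 1.5 and 0.50, and for Hoxd8 1.49 and -0.17. Hoxa9 had steps of -0.30 and 0.42 and Hoxa10 of 0.31 and 0.49, small beside their differences between genotypes.

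Genes that act with or on the Hox clusters were read from lists. The lists were chosen with earlier results of these data known, so their counts beside all tested genes only describe them. Cdx1 and Cdx2, caudal homeobox factors that activate Hox genes in the posterior embryo, rose by 4.31 (at least 7-fold) and 4.09 log2 units. Cdx2 read 1307, 2073 and 1920 in DKO cells and 99, 104 and 103 in wild-type cells, and both passed in all 6 leave-one-out fits. Cdx4 and the related Gsx1, Gsx2 and Pdx1 were under the filter on every array. Among 11 tested signals and factors of the posterior body 3 rose, beside 1.64% of all tested genes, 0 fell and 8 did not pass. Those that rose were Nkx1-2 (at least 19.8-fold), Sp5 (4.28) and Axin2 (3.47), the last 2 being Wnt targets. With the replicate block 5 rose, beside 5.07% of all tested genes. Cdx1 and Nkx1-2 entered the test only through the DKO arrays, so their differences follow partly from the filter. Without moderation of the variance Cdx1 (adjusted p = 0.0691) and Sp5 (0.0986) were lost. The signals Wnt3a, Fgf8 and Gdf11 read at most 5 on every array. T, also on this list, had no value here and was not read.

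The TALE homeobox class includes cofactors that bind DNA together with Hox proteins. The list holds members of the class, Tgif1 and Tgif2 among them, whether or not they are such cofactors. Of 8 tested members 3 fell, beside 2.5% of all tested genes, 0 rose and 5 did not pass, with a median difference of -0.78. With the replicate block 4 fell and 1 rose, beside 5.63% and 5.07% of all tested genes. Pknox2 was at least 1.53-fold lower (difference -1.92, adjusted p = 0.0141), Tgif2 fell by 1.42 (adjusted p = 0.0156) and Meis1, a partner of Hoxa9 in blood cells, fell by 1.14 (adjusted p = 0.0343). Meis1 read 14, 15 and 19 in DKO cells and 38, 33 and 34 in wild-type cells. Meis2 read 616, 613 and 1058 in DKO cells and 337, 344 and 468 in wild-type cells, which passed only with a block (difference 0.96, adjusted p = 0.156; 0.0177 with the replicate block and 0.0305 with the batch block).

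Each of these falls was lost in some leave-one-out fits, where fewer probe sets passed over the whole table as well. Those of Pknox2 and Meis1 also depended on the treatment of low values. Pknox2 entered the test only through the wild-type arrays, so its difference follows partly from the filter, and it was lost with no filter (adjusted p = 0.124) and with a pseudocount of 16 (0.0879). Meis1 was lost under the same settings (0.0501 and 0.114) and with a variance trend (0.0563). Without moderation of the variance 0 of the tested cofactor list passed. Meis1 passed without DKO replicate 3 (adjusted p = 0.0419) and was lost without any 1 of the other 5 arrays (0.0821 to 0.127). Pknox2 was lost without DKO replicate 1 (0.1), DKO replicate 2 (0.0712) or wild-type replicate 2 (0.0603), and Tgif2 without DKO replicate 1 (0.0755), DKO replicate 2 (0.0531) or wild-type replicate 2 (0.0856). Pbx2, Pknox1 and Tgif1 did not pass, nor did Pbx3, at -0.93 (adjusted p = 0.108; 0.0255 with the replicate block).

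Retinoic acid is another activator of Hox genes, chiefly of anterior ones. Of 10 tested genes of its pathway 1 rose, 2 fell and 7 did not pass, beside 1.64% and 2.5% of all tested genes that rose and fell. With the replicate block 2 rose and 3 fell, beside 5.07% and 5.63%. Crabp2, which carries retinoic acid to its receptors, read 58, 24 and 41 in DKO cells and 177, 159 and 304 in wild-type cells, a fall by 2.41 (SE 0.379, adjusted p = 0.0102, and at most 0.0389 over the 6 leave-one-out fits). Crabp1, a related binding protein, fell by 2.03 (adjusted p = 0.0493) and passed only without wild-type replicate 1 (0.018; 0.0844 to 0.155 in the others). Stra6, a retinol transporter, read 89, 56 and 501 in DKO cells and 16, 16 and 12 in wild-type cells, a rise of 3.22 (adjusted p = 0.0398) that passed in the fits without DKO replicate 2 (0.0339) or DKO replicate 3 (0.00775) and was lost without DKO replicate 1 (0.154), wild-type replicate 1 (0.0607), wild-type replicate 2 (0.116) or wild-type replicate 3 (0.0646). With a pseudocount of 16 Crabp1 (adjusted p = 0.0531) and Stra6 (0.0992) were lost, and with no filter Crabp1 (0.292), Stra6 (0.3) and Crabp2 (0.131) were. Crabp1 was also lost with a stricter filter (0.0501) and with quantile normalization (0.0617). Without moderation of the variance 0 of the tested pathway genes passed. The receptor gene Rarg differed by -0.77 (adjusted p = 0.364), and Cyp26a1, the enzyme that degrades retinoic acid, by -0.77 (adjusted p = 0.742). Stra8 had the lowest difference of the list, -2.44 (limma, adjusted p = 0.0591, and 0.000666 with the replicate block). Rxra differed by 1.04 (adjusted p = 0.0842, and 0.0139 with the replicate block). The block counts were Stra6 and Rxra for rises and Crabp1, Crabp2 and Stra8 for falls.

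**Figure D4:**
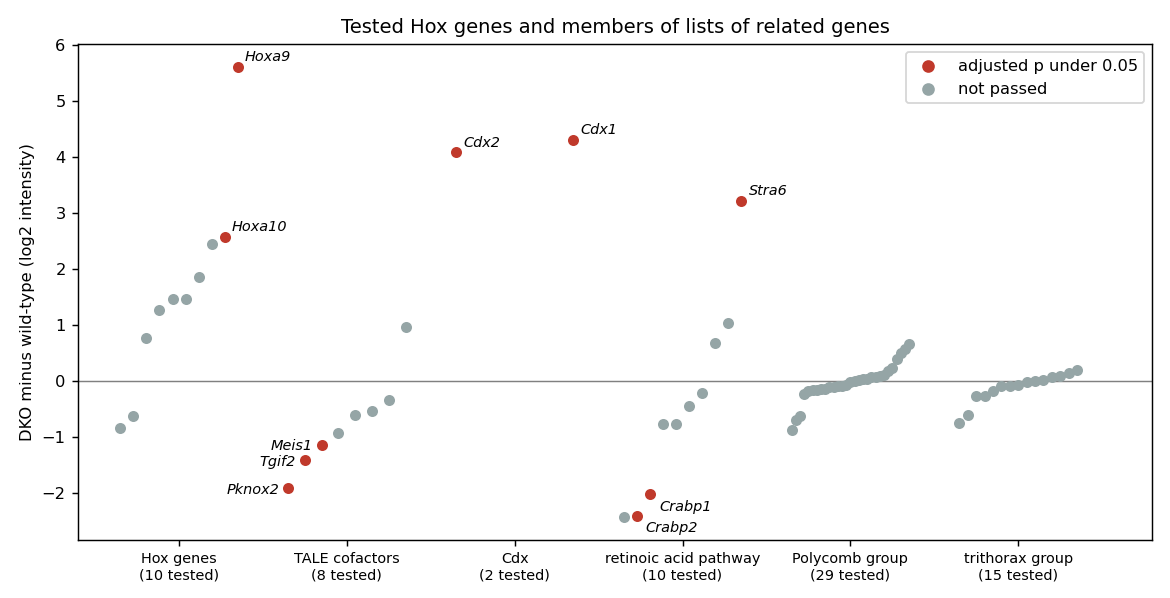
Log2 difference in intensity (DKO minus wild-type) of each tested gene, sorted within its list, for the Hox genes and 5 lists of related genes. Red points passed at an adjusted p of 0.05 and are named; grey points did not. The 29 Polycomb genes lie between -0.88 and 0.66 and the 15 trithorax genes between -0.75 and 0.20.

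The Polycomb group genes, which keep Hox clusters silent, were near wild-type levels. By limma 0 of 29 tested passed (2 at an unadjusted p of 0.05, 0 without moderation), with a median difference of -0.03. Ezh2, the methyltransferase, read 1269, 1561 and 1722 in DKO cells and 1578, 1631 and 1872 in wild-type cells. The largest difference was in Bcor, part of a variant Polycomb complex, at -0.88 (adjusted p = 0.317; 0.0295 with the replicate block). Of 15 tested trithorax genes and demethylases, which oppose Polycomb, limma also called 0 (1 at an unadjusted p of 0.05, 0 without moderation), and Kdm6a had the largest difference at -0.75 (adjusted p = 0.347). Transcript levels do not measure the activity of these proteins.

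Cells of other types that carry Hox transcripts were checked through their markers. Of 14 fibroblast markers 7 were tested and limma called 0 (1 at an unadjusted p of 0.05, 0 without moderation); their summed intensities were 510 to 623 in DKO cells and 584 to 773 in wild-type cells. Lum and Fap read at most 3 on every array, and Col1a1 read 105, 73 and 76 in DKO cells and 316, 135 and 221 in wild-type cells (adjusted p = 0.0805; 0.00506, lower in DKO cells, with the replicate block). Of 7 nascent mesoderm markers 2 were tested, Mixl1 and Eomes, which did not pass (both under 0.05 unadjusted; Eomes at 0.00734 with the replicate block), and the summed intensities were 283 to 358 in DKO cells and 118 to 179 in wild-type cells. Most of each sum came from Eomes, which read 235, 189 and 291 in DKO cells and 135, 68 and 106 in wild-type cells. Tbx6, Msgn1 and Fgf8 read at most 5. The list was written with 8 markers, but T had no value here and was not read. The neural markers summed to 104 to 350 in DKO cells and 358 to 611 in wild-type cells. Of 4 tested 1 fell, Pax6, by 3.47 (limma, adjusted p = 0.000826), beside 2.5% of all tested genes, and without moderation 0 passed. Under the replicate block 3 fell, beside 5.63% of all tested genes. Of the tested endoderm (7), trophoblast (4) and blood and endothelial (4) markers limma called 0 (2, 2 and 0 at an unadjusted p of 0.05, 0 without moderation). With the replicate block Eomes, also on the trophoblast list, was the 1 called, beside 5.07% of all tested genes that rose. Summed intensities in DKO and wild-type cells were 3048 to 6505 and 2819 to 5252 for endoderm, 3038 to 6020 and 4250 to 7755 for trophoblast, and 163 to 258 and 121 to 252 for blood. The 8 endoderm markers averaged 7.81, 7.49 and 8.30 log2 units on the 3 DKO arrays and 8.17, 7.90 and 6.63 on the 3 wild-type arrays. Replicate 3 was thus the highest DKO array and the lowest wild-type array, where Sox17 read 114, against 676 and 386 in the other wild-type arrays. Hoxc4, Hoxc13 and Hoxd13 were highest in replicate 3 of both genotypes. The part of these cell types in the Hox values was not tested, and in bulk RNA a change in the number of expressing cells and a change per cell cannot be told apart.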

How the data were processed

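RNA of 6 samples was measured on Affymetrix mouse arrays after amplification to biotin-labelled cDNA, per the labels' protocols. The deposited values are 1 whole-number intensity per probe set and array (1 to 12861), and limma 2.16.5, R 2.8.0, GCRMA 2.14.1 and GCOS are listed, with no roles, per the submitters' processing notes. Scale and build are not given in the sources used here; the values were taken as linear and converted to log2 with no pseudocount. Scanner files and detection flags were not used, and rounding makes low values coarse (lower quartile 4).

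Names came from the platform annotation and the RefSeq gene table (GRCm38.p6), used for order, names and promoter windows only; 34945 probe sets had 1 gene. Array controls were left out. DKO was compared with wild-type over 20841 tested probe sets by lmFit and eBayes (R 4.3.3, limma 3.58.1), two-sided, with Benjamini-Hochberg adjustment over all of them and a threshold of 0.05. A gene was read on its tested probe set with the highest mean, giving 10496 genes; SE is the moderated standard error. Where all 3 arrays of a genotype were under log2 4, a fold is a lower limit against that filter. The procedure was tested on simulated data.

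The sample titles give both genotypes replicate numbers 1 to 3. After removing genotype means, arrays sharing a number had correlations of 0.427, 0.354 and 0.595. Arrays with different numbers had correlations of -0.488 to 0.113. Each same-numbered pair was over 0.1, as was DKO replicate 2 with wild-type replicate 1 (0.113). The numbers were taken to pair the samples, but the main fit held genotype only and did not use this pairing. Alternatives held the replicate number or replicate 3 as a block. Named genes are every tested Hox member, Gsk3a and Gsk3b, up to 4 passing members of each list or its largest difference, and the nearest tested neighbours; the other genes were named after their values were seen. The members, lists and tests were chosen with earlier results of these data known. The probes' sequences and strands were not used, so cross-hybridisation between paralogues and signal from overlapping or antisense transcripts were not examined.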

Additional observations from a re-analysis of the deposited data

How the results depend on the processing

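Hoxa9 and Hoxa10 were the 2 Hox genes past the threshold, and the count stayed at 2 or 3 under the stricter filter, a pseudocount of 16, quantile normalization, a variance trend, the dimmest tested probe set of each gene, replicates 1 and 2 alone and each left-out array. It was 8 (also by probe set) with the replicate block, 5 with the batch block, 4 with no filter on low values and 1 without moderation, where Hoxa10 was lost. The 4 without a filter include Hoxb7 (4 on each DKO array, 3 on each wild-type array) and Hoxc10 (4 on each wild-type array), where rounding left no spread. Over all tested probe sets 675 passed; the count was 1995 with the replicate block, 1117 with the batch block, 440 within replicates 1 and 2, 31 without moderation and 290 to 604 with an array left out (290 without DKO replicate 1, 381 without DKO replicate 2, 319 without wild-type replicate 2). No called difference of a tested Hox gene changed sign in these fits. The cause of these shifts was not tested. Intensities under 16 limit 23 of the 33 measured genes, whose order and sizes are not reliable, and 3 arrays per genotype limit the precision.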

Other observations

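Probe sets shared by 2 Hox genes were kept out of the comparisons. The set given to both Hoxb8 and Hoxb7 read 3 to 4 on the 6 arrays, and the 2 sets given to both Hoxd4 and Hoxd3 read 2 to 3. Antisense transcripts of the clusters were also under the filter: Hoxa11os read 4, 5 and 11 in DKO cells and 3, 3 and 5 in wild-type cells, while Hoxb5os and Hoxd3os1 read at most 5. Of the homeobox genes nearest to Hox in sequence, Gbx2 read 231, 407 and 340 in DKO cells and 175, 430 and 477 in wild-type cells, and En2 read 227, 320 and 493 in DKO cells and 212, 532 and 436 in wild-type cells, so both overlapped. Meox1, Meox2, Gbx1, Mnx1 and Evx2 read at most 6 on every array.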
